A study of Arabidopsis thaliana with 30 samples.

Results

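ZAT14-like and ZAT14 are related zinc finger genes of Arabidopsis thaliana, and each was switched on with estradiol in roots of its own line. The subject here is the difference between the responses of these lines: for each gene, the change after induction in the ZAT14-like line minus the change after induction in the ZAT14 line. That difference draws on 18 of the 30 libraries in the series, 9 from either line. It was taken for the 17157 genes, of 34218 in the table, with at least 1 FPKM (a read density scaled to gene length and library size) in at least 3 of the 18 libraries. The difference is defined by the labelled groups and not by how any gene behaved. The genes named, the lists and the tests were chosen with earlier results of these data known.

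The libraries form 6 groups of 3. In the ZAT14-like line these are DMSO, 10 h and 14 h of 5 µM estradiol, and in the ZAT14 line the same 3. Both lines are Col-0 seedlings 5 days old, and both carry a construct with the WOL promoter, an estradiol-dependent transcription factor (XVE) and the zinc finger gene joined to the fluorescent protein mTurquoise. Whole root meristems were cut off and pooled for each library. The WOL promoter is active in the root vasculature, so the induced gene is driven in some cells of a library and read out over all of them. In such bulk samples fewer cells of a type and less RNA per cell cannot be told apart. The labels give the DMSO libraries no time of their own, and the same DMSO libraries serve for 10 h and 14 h. They do not say whether a replicate is a separate culture of seedlings or whether several transformed lines were used, so p-values measure the spread between these libraries.

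C2H2 zinc finger proteins of the ZAT group bind DNA through fingers that share a plant-specific core. Many of them also carry an EAR-type motif, a short stretch that recruits co-repressors, and such proteins are known mostly as repressors of transcription. In the root, vascular cells leave the division zone at set distances from the tip, xylem cells then build a patterned secondary wall and die, and the niche around the quiescent centre stays in place.

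The coding sequences of the induced genes show what they share. Both genes lie on chromosome 5 of TAIR10.1 with 1 exon each, ZAT14-like (AT5G04390) at 1238820 to 1240517 and ZAT14 (AT5G03510) at 880148 to 881347, both on the plus strand. The annotation calls each a C2H2-type zinc finger family protein and holds neither name, so the loci were assigned by knowledge of the genes. The coding sequence is 1089 bases in ZAT14-like and 879 bases in ZAT14, and 553 of 847 aligned bases, 65.3%, were identical. The finger cores and the EAR-type stretch are shown because they carry the known functions of the proteins. Capitals mark the bases that code for the finger core in the first 4 sequences and for the EAR-type motif in the others, all from RefSeq, 5′ to 3′.
ZAT14-like finger 1: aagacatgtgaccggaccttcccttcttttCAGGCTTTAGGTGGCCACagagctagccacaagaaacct
ZAT14 finger 1: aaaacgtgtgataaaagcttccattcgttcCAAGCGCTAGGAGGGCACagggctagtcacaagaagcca
ZAT14-like finger 2: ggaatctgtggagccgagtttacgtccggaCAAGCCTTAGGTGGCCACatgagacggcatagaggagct
ZAT14 finger 2: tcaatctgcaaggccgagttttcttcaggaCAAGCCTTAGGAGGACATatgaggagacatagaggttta
ZAT14-like EAR-type motif: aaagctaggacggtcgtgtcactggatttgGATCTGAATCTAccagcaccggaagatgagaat
ZAT14 EAR-type motif: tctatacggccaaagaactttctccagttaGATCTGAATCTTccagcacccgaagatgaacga
Both coding sequences held 2 finger cores and 1 EAR-type motif, in the same order.

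Each induced gene was high only after estradiol in its own line. ZAT14-like stood at 5.9, 5.46 and 6.59 FPKM with DMSO, at 48.2, 59.8 and 56.7 FPKM at 10 h and at 79.8, 74.9 and 59.5 FPKM at 14 h in the ZAT14-like line. In the ZAT14 line all 9 libraries lay between 0.461 and 0.996 FPKM. ZAT14 stood between 8.18 and 14.1 FPKM in the 9 libraries of the ZAT14-like line. In the ZAT14 line it stood at 16, 13.9 and 15.6 FPKM with DMSO, at 51.5, 41.6 and 42.9 FPKM at 10 h and at 69.2, 63.9 and 71.4 FPKM at 14 h. The levels reached at 14 h differed by less than the spread between libraries, 71.4 ± 10.6 FPKM of ZAT14-like in its line and 68.2 ± 3.89 FPKM of ZAT14 in its line (SD, n = 3 each). With DMSO the levels had differed, at 5.46 to 6.59 FPKM and 13.9 to 16 FPKM in the same order. Alike levels at 14 h are therefore not alike rises, and whether the constructs gave equal doses was not tested. ZAT14-like was already higher with DMSO in the ZAT14-like line, 5.98 ± 0.572 against 0.677 ± 0.282 FPKM, a log2 difference of 2.07 ± 0.12 (SE, adjusted p = 7.45e-08). Reads from the construct and from the native gene cannot be told apart in these values.

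**Figure D1:**
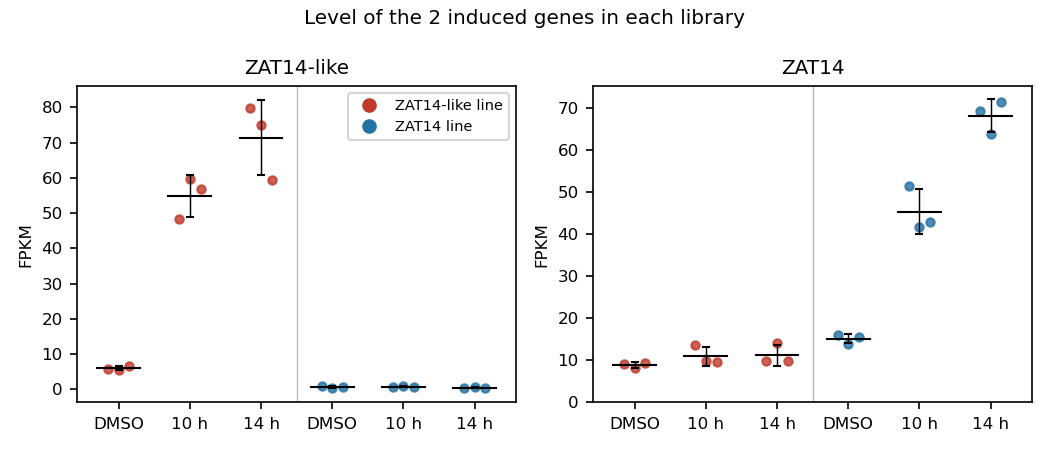
Level in FPKM (y axis) of ZAT14-like (left) and ZAT14 (right) in each of 18 libraries, by group (x axis), with the ZAT14-like line in red and the ZAT14 line in blue. Bars are means and whiskers SD of 3 libraries; each gene reaches about 70 FPKM at 14 h in its own line, 71.4 and 68.2 FPKM.

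Estimated depth was alike across groups, 18.2 to 26.7 M reads. The library ZAT14-like 10 h replicate 1 stood apart from the rest. Its FPKM values summed to 715530, against 659906 to 685489 in the other 17, and its median absolute log2 deviation from its group was 0.147, against at most 0.0957 elsewhere. Its 4 root cap markers (SMB, BRN1, BRN2 and FEZ) summed to 126 FPKM, against 71.8 to 93.2 FPKM in the others, and their part in the results was not tested. All 6 root meristem markers (PLT1, PLT2, BBM, SHR, SCR and CYCB1;1) passed 1 FPKM in every library, with sums of 96.3 to 109 FPKM in the 6 induced ZAT14-like libraries and 99.9 to 117 FPKM in the 6 induced ZAT14 libraries. Markers of other cells also stood high in single libraries. The 4 endodermis markers, 1 of them at 1 FPKM or more throughout, summed to 7.5 FPKM in ZAT14-like 14 h replicate 3 and 7.65 FPKM in ZAT14 14 h replicate 3, against 2.14 to 4.85 FPKM elsewhere. The 4 root hair markers summed to 31.2 FPKM in ZAT14-like 14 h replicate 3, against 16.4 to 25.1 FPKM elsewhere, and the 4 green tissue markers to 7.54 FPKM there, against 1.37 to 4.68 FPKM. Their part in the results was not tested. Counts without these libraries are given below.

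The lines responded to a large extent in the same direction. No library used here had estradiol without a zinc finger construct, and the DMSO libraries have no stated time. A shared response to the induced genes therefore cannot be told apart from one to estradiol or to time. Over both times, 2530 genes, 14.7% of those tested, passed an adjusted p of 0.05 in the ZAT14-like line (1642 rose, 9.57%, and 888 fell, 5.18%). In the ZAT14 line 563 genes, 3.28%, passed (389 rose, 2.27%, and 174 fell, 1.01%). These counts depend on single DMSO libraries. Without ZAT14-like DMSO replicate 2 the first falls to 978 and without replicate 1 to 1192, and without ZAT14 DMSO replicate 4 the second falls to 208 and without replicate 2 to 330. Without ZAT14-like 10 h replicate 1 the second is 945.

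Leaving out the induced genes, 2366 of the 2529 genes called in the ZAT14-like line had the same sign in the ZAT14 line, 93.6%, and 557 of the 562 called in the ZAT14 line had it in the ZAT14-like line, 99.1%. Among the 562, the ZAT14-like line had the larger change in 277, 49.3%, and the median ratio of the responses (ZAT14-like over ZAT14) was 0.985. Among the 453 genes called in both lines that ratio was 1.15, and the ZAT14-like line had the larger change in 277, 61.1%. Choosing genes by a line's own test favours larger values in that line, so these ratios only describe the sets. Across all 17157 genes the responses correlated with Pearson's r = 0.709, between lines that share no library but stand in 1 deposited table. Genes are not independent replicates.

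**Figure D2:**
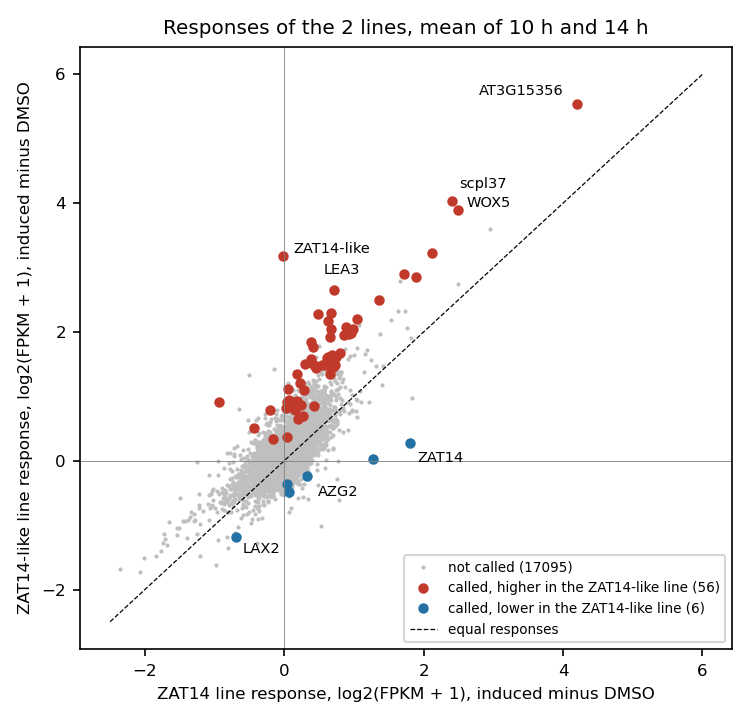
Response of the ZAT14-like line (y axis) against that of the ZAT14 line (x axis), each the mean of 10 h and 14 h minus DMSO on log2(FPKM + 1), for 17157 genes. Red and blue points are the 56 genes called higher and the 6 called lower in the ZAT14-like line, grey all other genes; most red points lie to the right of 0 and above the dashed line of equal responses.

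The response difference itself was called for 62 genes over both times, 0.361% of those tested. In the ZAT14-like line 56 (0.326%) were higher and 6 (0.035%) were lower. At an unadjusted p under 0.05 there were 1295. Leaving out the induced genes, 55 were higher and 5 lower. All 55 rose in the ZAT14-like line. In the ZAT14 line 31 of the 55 rose, 1 fell and 23 did not pass the test, while 51 of the 55 had a value above 0. The 55 are thus mostly genes that rose in both lines, and more in the ZAT14-like line: their median response was 1.55 in the ZAT14-like line and 0.60 in the ZAT14 line on the log2 scale. Their mean FPKM over the 6 induced libraries was 1.16 to 19.6 times as high in the ZAT14-like line as in the ZAT14 line, with a median of 3.03. In 34 of the 55, both DMSO groups averaged under 1 FPKM. Such a gene can pass the filter of 1 FPKM in 3 libraries only through the induced libraries where it is high. Its call is then not independent of how it came to be tested. All 6 induced ZAT14-like libraries lay above all 6 induced ZAT14 libraries for 33 of the 55, where 1.44% of all genes tested have that order. The 55 were called on these same libraries, so that share only describes them.

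Single libraries bear on which genes are called. Of the 62 calls, 34 held in each of the 18 fits that left out 1 library, and all 62 kept their direction in them. Without ZAT14-like DMSO replicate 2 the count was 38, and without replicate 1 it was 39. Without ZAT14-like 10 h replicate 1 the count was 68, and 58 of the 62 were among them. It was 50 without ZAT14-like 14 h replicate 3 and 48 without ZAT14 14 h replicate 3. The count of 62 at 14 h, described below, was likewise 38 and 41 without those DMSO libraries, and 43 and 45 without those 14 h libraries.

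LEA3 (AT1G02820), which encodes a late embryogenesis abundant protein of a family linked to desiccation, had the largest difference of the genes with a symbol after ZAT14-like itself. It stood at 5.29, 5.32 and 4.73 FPKM at 10 h and at 9.27, 6.79 and 6.19 FPKM at 14 h in the ZAT14-like line. In the ZAT14 line it stood at 0.374, 0.288 and 0.336 FPKM at 10 h and at 0.999, 1.31 and 2.15 FPKM at 14 h. With DMSO no library of either line passed 0.193 FPKM. The induced groups did not overlap, and the response difference was 1.93 ± 0.19 (SE, adjusted p = 0.000106). LEA3 passed the test against DMSO at both times in the ZAT14-like line and at 14 h in the ZAT14 line, and the difference at 10 h alone was 2.15 ± 0.22 (adjusted p = 0.000182).

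CPK16 (AT2G17890), a calcium-dependent protein kinase, had the smallest adjusted p after ZAT14-like. Its levels were 3.11, 2.79 and 2.45 FPKM at 10 h and 5.96, 5.8 and 5.58 FPKM at 14 h in the ZAT14-like line, against 0.137, 0.147 and 0.0982 FPKM at 10 h and 1.39, 1.37 and 1.3 FPKM at 14 h in the ZAT14 line. Even the 10 h libraries of the ZAT14-like line lay above the 14 h libraries of the ZAT14 line. The response difference was 1.62 ± 0.11 (SE, adjusted p = 7.9e-07) and held in all 18 fits that left out a library.

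WOX5 (AT3G11260) encodes the homeodomain factor of the quiescent centre that keeps the neighbouring columella stem cells undifferentiated. It stood at 0.828, 0.485 and 0.502 FPKM with DMSO, at 29.5, 19.9 and 20.1 FPKM at 10 h and at 22.6, 24.3 and 21.8 FPKM at 14 h in the ZAT14-like line. The ZAT14 line had 0.446, 0.567 and 1.06 FPKM with DMSO, 9.26, 5.05 and 7.51 FPKM at 10 h and 7.84, 9.89 and 12.6 FPKM at 14 h. WOX5 rose in both lines, by 3.9 ± 0.17 in the ZAT14-like line and 2.49 ± 0.17 in the ZAT14 line on the log2 scale, and the lowest induced ZAT14-like library lay above the highest induced ZAT14 library. The difference of 1.41 ± 0.25 (SE, adjusted p = 0.013) held in 15 of the 18 fits, and not without ZAT14-like DMSO replicates 2 or 4 or ZAT14 DMSO replicate 4. At 10 h alone it was 1.62 ± 0.28 (adjusted p = 0.0195), and without ZAT14-like 10 h replicate 1 it was 1.44 and did not pass. None of the other 15 tested genes on the PLETHORA and stem cell niche list was called over both times, among them PLT1 (-0.08), PLT2 (-0.11) and SCR (-0.12).

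scpl37 (AT3G52010), a serine carboxypeptidase-like gene, is listed at 0 in all 6 DMSO libraries. At 10 h it stood at 6.57, 7.29 and 7.13 FPKM in the ZAT14-like line and at 2.85, 0.559 and 1.09 FPKM in the ZAT14 line. At 14 h it stood at 30.8, 37.7 and 30.1 FPKM in the ZAT14-like line and at 9.84, 11.2 and 12.5 FPKM in the ZAT14 line. At each time the ZAT14-like libraries were all above the ZAT14 libraries, and the difference over both times was 1.63 ± 0.26 (SE, adjusted p = 0.00785). A gene listed at 0 in both DMSO groups may lie below what these depths show.

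**Figure D3:**
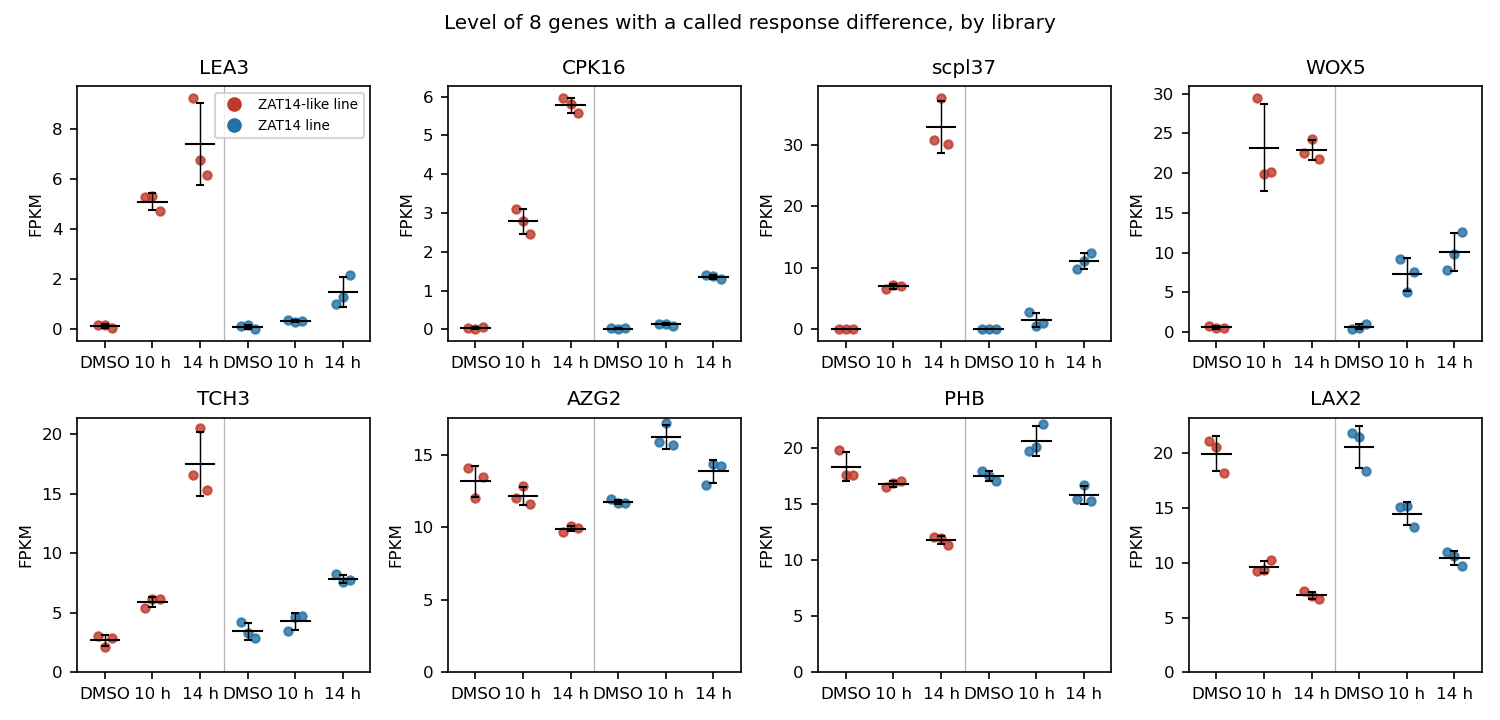
Level in FPKM (y axis) in each library, by group (x axis), of 8 genes called in the response difference over both times, with the ZAT14-like line in red and the ZAT14 line in blue, means as bars and SD of 3 libraries as whiskers. LEA3, CPK16, scpl37, WOX5 and TCH3 sit higher after estradiol in the ZAT14-like line, and AZG2, PHB and LAX2 sit lower there.

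Further genes of this kind covered membranes, transport and metabolism. NAC049, a NAC-family transcription factor gene, averaged 5.2 FPKM over the induced ZAT14-like libraries and 2 FPKM over the induced ZAT14 libraries, with a difference of 1.27 ± 0.20 (SE, adjusted p = 0.00785). TET13, which encodes a tetraspanin of the plasma membrane, averaged 3.75 and 1.01 FPKM in the same order of lines, with a difference of 1.20 ± 0.15 (adjusted p = 0.00112). SFH3, a SEC14-like gene of phosphoinositide transfer, averaged 13 FPKM in the induced ZAT14-like line and 5.65 FPKM in the induced ZAT14 line, and its difference was 1.14 ± 0.15 (adjusted p = 0.0012). These genes rose in both lines and their calls held in all 18 fits that left out a library. SFH3 overlaps a neighbouring gene, AT2G21530, and the counting is not stated to use strand.

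E12A11 (MOTHER OF FT AND TFL1, AT1G18100), of the phosphatidylethanolamine-binding family and known from the control of seed germination, averaged 9.6 FPKM in the induced ZAT14-like line and 4.16 FPKM in the induced ZAT14 line, and its difference was 1.11 ± 0.16 (adjusted p = 0.00374). It also overlaps other annotated genes. APK4, a kinase of sulfate assimilation, averaged 7.36 FPKM in the ZAT14-like line and 3.46 FPKM in the ZAT14 line after induction, with a difference of 1.06 ± 0.17 (adjusted p = 0.00807). With DMSO the log2 differences between the lines were -0.01 ± 0.13 for E12A11 and -0.15 ± 0.14 for APK4, and neither passed the test.

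The highest-expressed gene among the 55 has no symbol. AT3G15356, annotated as a legume lectin family protein and named here after its values were seen, stood at 237, 234 and 194 FPKM at 14 h in the ZAT14-like line and at 81.8, 75.7 and 80.1 FPKM at 14 h in the ZAT14 line. With DMSO it averaged 2.14 ± 0.669 FPKM in the ZAT14-like line and 1.61 ± 0.309 FPKM in the ZAT14 line (SD, n = 3 each). It rose in both lines, by 5.54 ± 0.15 in the ZAT14-like line and 4.20 ± 0.15 in the ZAT14 line on the log2 scale, and the difference was 1.34 ± 0.21 (SE, adjusted p = 0.00785).

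AT4G16146, annotated as a protein related to a cAMP-regulated phosphoprotein, and AT5G62998, an uncharacterized protein, had the largest differences without a symbol, 1.80 ± 0.21 (adjusted p = 0.000714) and 1.84 ± 0.23 (adjusted p = 0.00112). AT4G16146 stood at 12, 7.33 and 5.83 FPKM at 10 h and at 15.7, 16.3 and 17.3 FPKM at 14 h in the ZAT14-like line, against 2.54, 2.38 and 2.01 FPKM at 10 h and 3.61, 4.91 and 5.19 FPKM at 14 h in the ZAT14 line. Its induced groups did not overlap. AT5G62998 is different in kind, since the lines already differed with DMSO: 0, 0.344 and 0.421 FPKM in the ZAT14-like line and 1.65, 1.31 and 2.56 FPKM in the ZAT14 line (log2 difference -1.17 ± 0.19, adjusted p = 0.0187). It rose in the ZAT14-like line, to between 0.754 and 2.19 FPKM, and fell in the ZAT14 line, to between 0.335 and 0.841 FPKM.

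AT5G62998 was among 17 genes, 0.0991% of those tested, called between the lines with DMSO, 9 of them (0.0525%) above and 8 (0.0466%) below the ZAT14 line's level in ZAT14-like roots. The count was 10 without ZAT14-like DMSO replicate 2 or without ZAT14 DMSO replicate 1 or 4. Apart from it and ZAT14-like, none of the 17 was called in the response difference. AT1G75945, an uncharacterized protein chosen after its values were seen, averaged 15.3 FPKM in the ZAT14-like line and 0.0609 FPKM in the ZAT14 line with DMSO. AT3G01345, also chosen so, averaged 33.2 FPKM in the ZAT14-like line and 208.8 FPKM in the ZAT14 line. For 48 of the 55 genes higher in the response difference, the lines differed by less than 0.25 with DMSO on the log2 scale.

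Few genes were lower in the ZAT14-like line, and for 2 of the 5 beside ZAT14 (AZG2 and AT1G53060) all 6 induced ZAT14-like libraries lay below all 6 induced ZAT14 libraries, an order that 1.36% of all genes tested have. The 5 were called on these same libraries, so that share only describes them. AZG2 (AT5G50300), a gene of the purine permease family, fell in the ZAT14-like line (log2 -0.24 ± 0.06, adjusted p = 0.0113) and rose in the ZAT14 line (0.33 ± 0.06, adjusted p = 0.00367). It stood at 12, 12.8 and 11.6 FPKM at 10 h and at 9.7, 10.1 and 9.96 FPKM at 14 h in the ZAT14-like line, against 15.9, 17.2 and 15.7 FPKM at 10 h and 12.9, 14.4 and 14.2 FPKM at 14 h in the ZAT14 line. The lowest induced ZAT14 library lay just above the highest induced ZAT14-like library, and the difference was -0.57 ± 0.08 (SE, adjusted p = 0.00301), called in all 18 fits without a library. AZG2 and AT5G62998 were the 2 genes called in both lines with opposite signs.

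PHB (AT2G34710), a class III homeodomain leucine zipper factor that patterns the root vasculature, had a difference of -0.40 ± 0.08 (SE, adjusted p = 0.0303). At 14 h it stood at 12, 12 and 11.3 FPKM in the ZAT14-like line and at 15.4, 16.7 and 15.2 FPKM in the ZAT14 line, without overlap. It fell in the ZAT14-like line over both times (-0.36 ± 0.05) and did not pass the test in the ZAT14 line (0.04 ± 0.05). LAX2 (AT2G21050), an auxin influx carrier of vascular cells, fell in both lines, by 1.18 ± 0.07 in the ZAT14-like line and by 0.69 ± 0.07 in the ZAT14 line. It averaged 7.04 ± 0.349 FPKM at 14 h in the ZAT14-like line and 10.5 ± 0.653 FPKM in the ZAT14 line (SD, n = 3 each), and the difference was -0.49 ± 0.10 (SE, adjusted p = 0.0482). Both calls rest on all libraries: PHB was called in 7 and LAX2 in 4 of the 18 fits without a library.

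AT3G17190, an uncharacterized protein, had the largest negative difference after ZAT14, -1.24 ± 0.21 (SE, adjusted p = 0.0122). At 14 h it is listed at 0 in all 3 ZAT14-like libraries and stood at 2.96, 2.87 and 5.08 FPKM in the ZAT14 line. All 6 DMSO libraries list it at 0. It passed the filter on low values through these ZAT14 libraries, the group where it is high, so its call is not independent of how it came to be tested. AT1G53060, another gene annotated as a legume lectin family protein, averaged 2.02 FPKM in the induced ZAT14-like line and 3.45 FPKM in the induced ZAT14 line; its difference of -0.55 ± 0.11 (adjusted p = 0.0497) was called in only 2 of the 18 fits.

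The times were also compared apart. At 10 h the response difference was called for 31 genes, 0.181% of those tested (29 higher, 0.169%, and 2 lower, 0.0117%). At 14 h it was called for 62 genes, 0.361% (58 higher, 0.338%, and 4 lower, 0.0233%). At an unadjusted p under 0.05 there were 1328 at 10 h and 1063 at 14 h. Of these calls 20 were shared, 11 were called at 10 h only and 42 at 14 h only, and both sets subtract the same DMSO libraries. Fitted with the 4 groups of the contrast alone, 4 genes were called at 10 h and 61 at 14 h. Without ZAT14-like 10 h replicate 1, 25 genes were called at 10 h. The count there was 18 without ZAT14 DMSO replicate 4 or ZAT14 10 h replicate 4, and 20 without ZAT14 10 h replicate 3.

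The change of the difference between the times compares 10 h with 14 h directly, so the DMSO means drop out, while all 18 libraries give the spread. It was called for 5 genes, 0.0291% of those tested (4 larger, 0.0233%, and 1 smaller, 0.00583%, at 14 h), and 781 genes had an unadjusted p under 0.05. Fitted on the 4 induced groups alone, with no DMSO library, it was called for 0 genes, and 582 had an unadjusted p under 0.05. EMB1030 (AT5G22800), an alanyl-tRNA synthetase gene, stood at 4.18, 4.79 and 4.32 FPKM at 10 h and at 14.6, 15.7 and 10.7 FPKM at 14 h in the ZAT14-like line. In the ZAT14 line it stood at 3.15, 2.94 and 2.85 FPKM at 10 h and at 3.74, 4.41 and 4.66 FPKM at 14 h. The difference grew by 1.02 ± 0.15 (SE, adjusted p = 0.0282), a call that held in 2 of the 18 fits without a library.

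The other 4 genes have no symbol and were named after their values were seen, apart from AT3G17190. AT4G32950, a protein phosphatase 2C family gene, stood at 0.503, 0.76 and 0.559 FPKM at 10 h and at 4.81, 6.08 and 3.43 FPKM at 14 h in the ZAT14-like line, and between 0.175 and 0.531 FPKM in the 6 induced ZAT14 libraries. Its change of 1.52 ± 0.19 (adjusted p = 0.0083) held in all 18 fits. Among the induced libraries it reached 1 FPKM only at 14 h in the ZAT14-like line, the group where it is high. This call is therefore not independent of the filter on low values. AT1G21528 changed by 1.81 ± 0.26 (adjusted p = 0.0157) and AT3G10590, a homeodomain-like gene, by 1.51 ± 0.24 (adjusted p = 0.0364), and they held in 11 and 2 of the 18 fits. AT3G17190, which passed the filter through its ZAT14 14 h libraries, changed the other way, by -1.88 ± 0.25 (adjusted p = 0.0083), in all 18 fits. Without 1 library the count of such genes was 2 to 4, or 9 without ZAT14-like 14 h replicate 4. Without ZAT14-like 10 h replicate 1 it was 2, both among the 5.

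**Figure D4:**
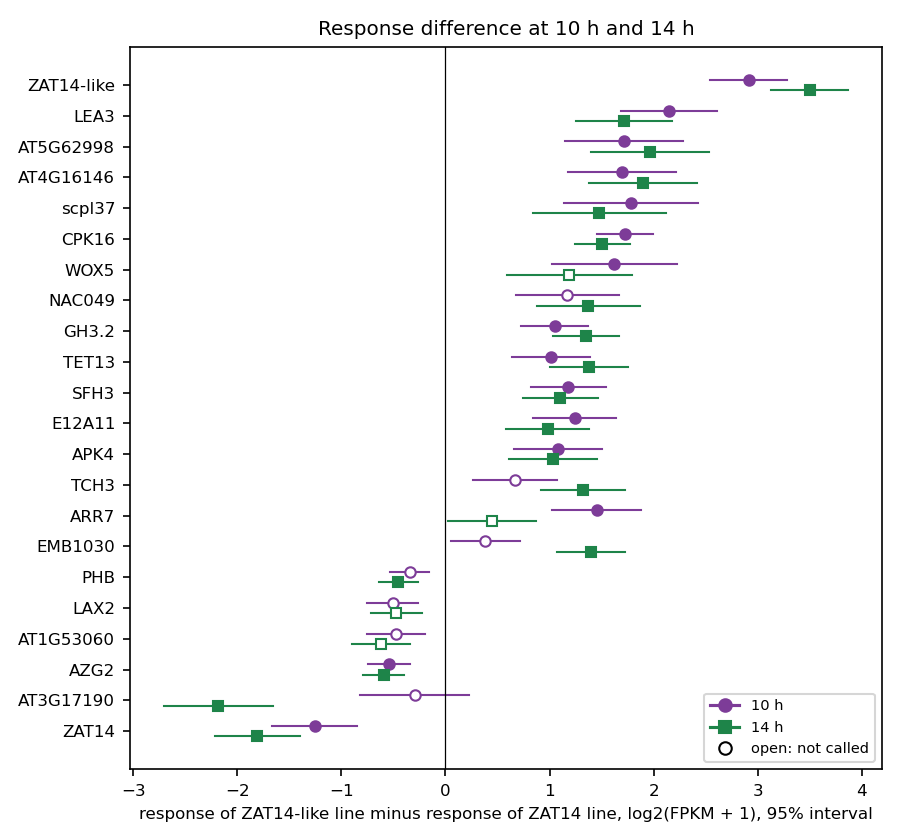
Response of the ZAT14-like line minus response of the ZAT14 line on log2(FPKM + 1) (x axis) at 10 h (circles) and 14 h (squares) for 22 genes (y axis), with 95% intervals; open symbols did not pass the test. EMB1030 and AT3G17190 passed at 14 h and not at 10 h, ARR7 and WOX5 at 10 h and not at 14 h. Of these 4 genes, the change between the times was called for EMB1030 and AT3G17190.

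Genes of the secondary wall, the cellulose, xylan and lignin thickening of xylem cells, formed the list with the most calls. Of 22 listed genes 15 were tested. None was called over both times or at 10 h. At 14 h 5 of the 15 were called higher in the ZAT14-like line, where 0.338% of all genes were, and the list's median difference was 0.719 against 0.00 over all genes. At 10 h that median was 0.172. The change of the difference between the times was called for 0 of the 15. The list was drawn up with earlier results of these data known. Against DMSO at 14 h, 11 of the 15 rose in the ZAT14-like line and 6 in the ZAT14 line, so wall genes rose in both lines; of all genes tested, 7.89% rose at 14 h in the ZAT14-like line and 2.85% in the ZAT14 line.

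LAC4, a laccase of lignin formation, stood at 2.97, 4.15 and 2.26 FPKM at 14 h in the ZAT14-like line and at 0.729, 0.877 and 0.55 FPKM in the ZAT14 line. The difference was 1.28 ± 0.22 (SE, adjusted p = 0.0109) and was called in all 18 fits without a library. At 14 h only the ZAT14-like libraries reached 1 FPKM of LAC4, so its call may not be independent of the filter on low values. IRX9, of xylan backbone synthesis, stood at 3.36, 3.88 and 2.77 FPKM in the ZAT14-like line and at 0.518, 0.98 and 1.1 FPKM in the ZAT14 line, a difference of 1.22 ± 0.22 (adjusted p = 0.0157). In both genes the 14 h libraries of the lines did not overlap. IRX9 held in 13 of the 18 fits. Of the 5 calls, LAC4, CTL2 and CESA7 held without ZAT14-like 14 h replicate 3, the library with high root hair and endodermis marker sums, and LAC4, IRX9 and CESA7 held without ZAT14 14 h replicate 3.

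Of the wall cellulose synthases, CESA7 stood at 4.62, 4.63 and 4.73 FPKM at 14 h in the ZAT14-like line and at 1.66, 2.32 and 2.35 FPKM in the ZAT14 line, a difference of 0.85 ± 0.15 (adjusted p = 0.0151, 14 of 18 fits). CESA8 averaged 1.61 FPKM in the ZAT14-like line and 0.56 FPKM in the ZAT14 line, and its difference of 0.76 ± 0.16 (adjusted p = 0.04998) was called in 1 of the 18 fits. CESA4, their partner in the same complex, rose in both lines at 14 h (1.01 ± 0.10 in the ZAT14-like line and 0.53 ± 0.10 in the ZAT14 line), and its difference of 0.48 ± 0.14 did not pass the test (adjusted p = 0.308). CTL2, a chitinase-like gene, had a difference of 1.25 ± 0.24 (adjusted p = 0.0363, 8 of 18 fits). The remaining 9 tested members did not pass and ran from FLA11 (-0.24) to ESK1 (0.87). CESA7, CESA8 and CESA4 overlap neighbouring genes.

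**Figure D5:**
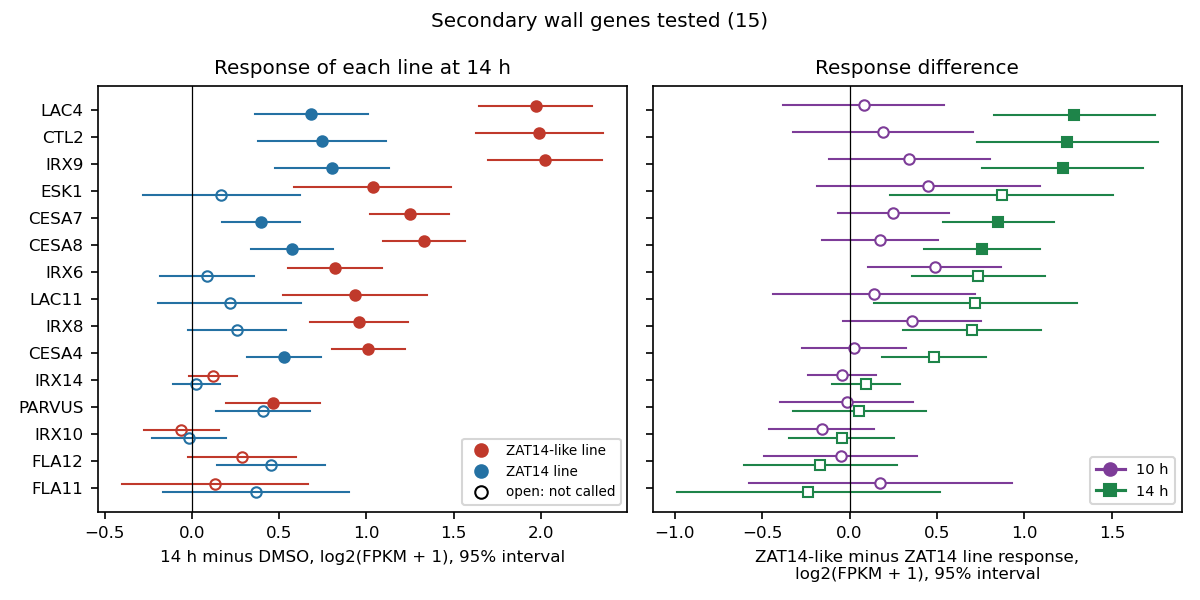
Response at 14 h of each line (left; ZAT14-like line in red, ZAT14 line in blue) and response difference at 10 h and 14 h (right) for the 15 secondary wall genes tested (y axis), on log2(FPKM + 1) (x axes) with 95% intervals; open symbols did not pass the test. LAC4, CTL2, IRX9, CESA7 and CESA8 passed in the difference at 14 h, and none of the 15 did at 10 h.

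The switches and executors of xylem fate did not pass. On the list of xylem switches (VND factors and their MYB targets) 0 of 10 tested genes were called in the difference at any time; MYB46, a master switch of the wall, came nearest with 0.83 over both times (adjusted p = 0.064). On the list of xylem cell death 0 of 5 were called, among them XCP1, a cysteine protease of xylem, with 0.69 (adjusted p = 0.601). XCP1 itself rose in both lines, by 2.32 in the ZAT14-like line and 1.63 in the ZAT14 line.

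A promoter motif known from xylem genes was looked for in the 250 bases before each gene's annotated start. The tracheary element regulating element, searched on either strand, lay in 0.432% of the 17114 windows of tested genes, in 2 of the 15 wall genes (CESA4 and FLA11), in 1 of the 57 genes called higher at 14 h and in 0 of the 55 called higher over both times. The 1 gene is AT1G70500, a pectin lyase-like gene named after its values were seen, with 2.84, 2.94 and 2.02 FPKM at 14 h in the ZAT14-like line and 0.36, 0.74 and 0.737 FPKM in the ZAT14 line. Its difference at 14 h was 1.23 ± 0.18 (SE, adjusted p = 0.00333). At 14 h it reached 1 FPKM in the ZAT14-like line only, so its call may not be independent of the filter on low values. The window of FLA11, whose difference at 14 h was negative and did not pass, is not shown. The windows of AT1G70500 (TAIR10.1, chr1:26568872-26569121, minus strand) and CESA4 (chr5:17714140-17714389, plus strand) are shown as examples of this motif. They are from RefSeq, 5′ to 3′ on the gene's strand with the match in capitals.
AT1G70500: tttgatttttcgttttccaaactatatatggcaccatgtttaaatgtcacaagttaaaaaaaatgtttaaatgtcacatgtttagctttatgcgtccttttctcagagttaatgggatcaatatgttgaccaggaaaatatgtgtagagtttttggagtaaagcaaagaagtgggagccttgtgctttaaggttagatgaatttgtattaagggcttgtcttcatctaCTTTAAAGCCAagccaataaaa
CESA4: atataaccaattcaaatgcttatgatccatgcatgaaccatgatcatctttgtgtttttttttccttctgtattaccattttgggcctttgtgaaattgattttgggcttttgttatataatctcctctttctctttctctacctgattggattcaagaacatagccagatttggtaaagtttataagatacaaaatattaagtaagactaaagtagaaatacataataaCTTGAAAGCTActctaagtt
The auxin response element (TGTCTC, either strand) lay in 12.7% of the windows of the 55 genes, in 22.8% of those of the 57 called higher at 14 h (13 windows) and in 26.7% of those of the wall genes (4 of 15), against 10.6% of all windows. The G-box (CACGTG, its own reverse complement) lay in 9.09% of the 55, 10.5% of the 57 and 0 of the 15 wall windows, against 7.39% of all windows.

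Hormone genes contributed single members. GH3.2, whose product joins auxin to amino acids, stood at 1.24, 1.37 and 1.12 FPKM at 10 h and at 3.21, 2.48 and 2.85 FPKM at 14 h in the ZAT14-like line, against 0.211, 0.152 and 0.126 FPKM at 10 h and 0.486, 0.609 and 0.77 FPKM at 14 h in the ZAT14 line. The induced groups did not overlap and the difference was 1.20 ± 0.13 (SE, adjusted p = 0.000316). Among the induced libraries only those of the ZAT14-like line reached 1 FPKM, the limit of the filter on low values. The call of GH3.2 is therefore not independent of how it came to be tested. With LAX2, which was lower in the ZAT14-like line, GH3.2 was 1 of 2 genes called over both times among 14 tested for auxin conjugation and transport. Of all genes tested 0.361% were called, and GH3.3 (0.33) did not pass. Of 20 Aux/IAA repressors tested, 0 were called.

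ARR7, a type-A response regulator that cytokinin induces, moved in opposite directions in the lines at 10 h. It stood at 1.43, 1.17 and 1.07 FPKM with DMSO and at 3.41, 3.05 and 2.24 FPKM at 10 h in the ZAT14-like line, against 2.74, 2.1 and 1.96 FPKM with DMSO and 1.17, 0.998 and 1.05 FPKM at 10 h in the ZAT14 line. With DMSO every ZAT14-like library already lay below every ZAT14 library, a gap that was not called but is part of the response difference. At 10 h ARR7 had risen in the ZAT14-like line and fallen in the ZAT14 line, and the response difference was 1.45 ± 0.20 (SE, adjusted p = 0.00585, 18 of 18 fits). At 14 h it was 0.45 ± 0.20 and did not pass, and the change between the times did not either (-1.0 ± 0.20, adjusted p = 0.213). ARR7 was the only gene called over both times of 12 tested for cytokinin response and degradation, where 0.361% of all genes tested were. AHP6 (0.50) and CKX7 (0.66) did not pass.

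TCH3, a calmodulin-like gene that touch induces, was the only gene called over both times of 8 tested for wound, jasmonate and touch. Of all genes tested 0.361% were called. It stood at 16.6, 20.5 and 15.3 FPKM at 14 h in the ZAT14-like line and at 8.21, 7.58 and 7.73 FPKM in the ZAT14 line. Its difference over both times was 1.00 ± 0.16 (SE, adjusted p = 0.00897). TCH3 overlaps other annotated genes.

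Growth genes fell in the ZAT14-like line, and no difference between the lines was called. Of 31 mitosis genes, all tested, 24 fell at 14 h in the ZAT14-like line and 3 in the ZAT14 line. Of all genes tested, 4.49% fell at 14 h in the ZAT14-like line and 1.43% in the ZAT14 line, so calls were fewer in the ZAT14 line in general. At 14 h the response difference was below 0 for all 31, with a median of -0.242 against 0.00 over all genes, and 0 of the 31 were called; CYCB2;1 had the lowest value, -0.48 (adjusted p = 0.668). Against the same shares of all genes, 13 of 27 DNA replication genes fell at 14 h in the ZAT14-like line and 0 in the ZAT14 line, and 0 were called in the difference (median -0.18 at 14 h). Members of such lists move together from library to library, so the shared sign is not a count of independent results.

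Of 10 ribosome biogenesis genes 9 fell over both times in the ZAT14-like line and 0 in the ZAT14 line, where 5.18% and 1.01% of all genes fell in these lines, and 0 were called in the difference (median -0.203). In the group of TMO5, LHW and thermospermine genes, which set vascular cell divisions, 7 of 11 fell in the ZAT14-like line and 4 in the ZAT14 line, with 0 called in the difference; TMO5 had -0.56 (adjusted p = 0.086) and ACL5 -0.63 (adjusted p = 0.174). No member of the lists for PEAR family Dof factors, protophloem specification, sieve element maturation, root cap, endodermis and cortex, or epidermis and root hair was called over both times, at 10 h or at 14 h. In the list of ZAT and AZF repressors, 11 were tested and the induced genes were the only ones called.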

How the data were processed

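Per the labels' protocols, polyA RNA of dissected root meristems was sequenced. The authors deposited FPKM values, and the submitters' processing notes name TopHat2, HTSeq and TAIR10 without versions, annotation or filters. FPKM is relative to the other genes of a library. Columns were tied to samples by the header named in each label; 0 columns of the table went unused. Depth was estimated from low values, which are multiples of 1 read given exon length: within 0.05 reads, 72.7% to 75.5% of the 3000 lowest values per library were whole, so counts were not restored. Symbols and sequences came from TAIR10.1; 32548 of 34218 identifiers matched.

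The 6 group means were fitted to log2(FPKM + 1) with limma (version 3.58.1; R 4.3.3), the variances moderated along a mean trend; this scale understates changes of low genes. Two-sided p-values were adjusted after Benjamini and Hochberg over all 17157 genes, and an adjusted p below 0.05 made a call. Coding sequences were aligned with Biopython 1.88 in Python 3.11.15. The fit was tested on simulated data.

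The members, lists and tests were chosen with earlier results of these data known. Named genes were the induced genes, the largest differences on each side among called genes with a symbol and at least 5 FPKM in the highest group (12 over both times, 5 at each time and for the change between them), up to 4 called members of each list, and the 2 largest without a symbol on each side. Others are list members or are said to be chosen after their values were seen. Alternatives were a pseudocount of 0.1, no filter, median-ratio rescaling, a test against an absolute log2 value of 1, replicate blocks, the compared groups alone, leaving out each library, and leaving out the libraries numbered 2.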

Additional observations from a re-analysis of the deposited data

Results flagged for a closer look

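The lines differed in their response to the same estradiol treatment, by a test of the difference itself, for 62 genes over both times, 31 at 10 h and 62 at 14 h. The difference changed between the times for 5. Values are log2 differences of the responses over both times, ZAT14-like line minus ZAT14 line, and include any gap between the lines with DMSO. Of the induced genes, ZAT14-like had 3.2 and ZAT14 -1.53. Higher in the ZAT14-like line were LEA3 (1.93), AT5G62998 (1.84), AT4G16146 (1.80), scpl37 (1.63), CPK16 (1.62), WOX5 (1.41), NAC049 (1.27), TET13 (1.20), GH3.2 (1.20), SFH3 (1.14), E12A11 (1.11), APK4 (1.06), TCH3 (1.00), ARR7 (0.95) and EMB1030 (0.89). Lower there were AT3G17190 (-1.24), AZG2 (-0.57), AT1G53060 (-0.55), LAX2 (-0.49) and PHB (-0.40).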

How the results depend on the processing

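No named gene changed direction under any alternative, and median-ratio rescaling moved no count by over 1.5 times. Over both times 62 genes were called, against 25 with a pseudocount of 0.1, 106 without a filter, 1 against an absolute log2 value of 1, 5 with a replicate block within lines and 29 without the libraries numbered 2. The same settings gave 16, 44, 1, 3 and 14 at 10 h (31), 15, 121, 1, 7 and 30 at 14 h (62), and 0, 15, 0, 0 and 1 for the change between times (5). With the compared groups alone the counts were 4 at 10 h, 0 for the change and 8 between lines with DMSO (17). The fit of the compared groups alone is the main fit for the difference over both times, which uses all 6. Between lines with DMSO the test against 1 gave 5, the block within lines 6 and leaving out number 2 gave 9. The ZAT14-like line response (2530) gave 47 against 1, 621 with the block within lines, 1623 with the replicate block across lines, 962 without number 2 and 1237 with the compared groups alone. For the ZAT14 line (563) the values were 11 against 1, 292 with the block within lines and 244 without number 2.

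Leaving out 1 library gave 38 to 68 genes over both times, 18 to 42 at 10 h, 38 to 69 at 14 h, 2 to 9 for the change, 10 to 20 with DMSO, 978 to 3133 for the ZAT14-like line and 208 to 945 for the ZAT14 line. The cause was not tested.

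The labels do not say that a replicate number is shared between groups, and only 12 of 34 same-numbered pairs correlated above 0.1 (-0.16 to 0.50), so the numbers were not taken to pair libraries. As a hint of shared handling in the data, 14 of 18 libraries correlated best with their own number, and the 3 libraries numbered 2, also the deepest, correlated at 0.42 to 0.48. Of the 160 calls over both times, at 10 h, at 14 h and for the change, 15 held with the replicate block within lines and 135 with the block across lines. Over both times the 5 that held within lines were ZAT14-like, ZAT14, LEA3, CPK16 and SYP131. WOX5, GH3.2, AZG2, TET13 and SFH3 did not pass there, although the last 4 held in all 18 fits that left out a library. A replicate block across lines gave 62 genes over both times, 29 at 10 h, 57 at 14 h and 3 for the change. Of the 55 genes called higher, 34 were under 1 FPKM in both DMSO groups, where depth limits precision most.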

Other observations

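Genes whose annotation notes name pollen were frequent among the called genes. The annotation carries notes on where a gene is expressed for 34 of the 55 genes higher in the ZAT14-like line, and the notes of 14, 41.2%, name pollen or the male gametophyte. The same holds for 3.3% of the 10486 tested genes with such a note, for 7.11% of the 985 that rose in the ZAT14-like line and for 8.1% of the 247 that rose in the ZAT14 line. Some notes give a number of plant structures in place of names, so these shares also depend on how a note is written. The median number of structures was 11.5 for the 34 genes and 22 for all tested genes with a note. It was 22 for those that rose in the ZAT14-like line and 21 for those in the ZAT14 line. CPK16, APK4, SYP131 (a syntaxin of vesicle fusion), RIC1 (an effector of ROP GTPases) and ABCG28 (a transporter) are among the 14. The libraries are root meristems, and the grouping was made after the values were seen, so it is a description with no test.

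Products named for calcium, calmodulin or an EF hand formed another such group, also drawn after the values were seen. Leaving out the induced genes, 81 genes were called over both times, at 10 h or at 14 h. Of these 5, 6.17%, have a product name with calcium, calmodulin or EF hand (TCH3, CPK16, CPK34, AT4G03290 and AT5G54130), against 1.05% of all genes tested. Genes whose product is a tRNA synthetase were 2 of the 81, 2.47%, EMB1030 and AT1G17960, against 0.221% of all genes tested.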
